A study of Mus musculus with 12 samples.

Results

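The 10 genes described here make, store, receive and restrain transforming growth factor beta (TGF-beta). They are the ligand genes Tgfb1, Tgfb2 and Tgfb3, the receptor genes Tgfbr1, Tgfbr2 and Tgfbr3, the latent binding protein genes Ltbp1 and Ltbp2, and the feedback genes Smad7 and Skil. They were chosen with earlier results of these data known, but by symbol and with no measured value in the rule. They came from the 27179 genes of the deposited count table. All 10 were found there, and all 10 were among the 15969 genes kept by a filter on low counts. RNA had been sequenced from basal and luminal cells sorted by flow cytometry from the mammary glands of wild type, untreated female FVB/N mice. The mice were virgin, at day 18.5 of pregnancy or at day 2 of lactation, with 2 mice per stage and 2 libraries for each of the 6 groups. Basal cells form the outer, contractile layer of the gland and luminal cells the inner layer that secretes milk. All luminal libraries were run in lane 1 and all basal libraries in lane 2, so lane and cell type cannot be told apart. The labels do not say which library came from which mouse, nor how the gates were set or how old the mice were.

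TGF-beta is secreted as a latent complex in which the ligand stays wrapped in its own propeptide. Latent binding proteins such as Ltbp1 tether this complex to the extracellular matrix until integrins or proteases free the ligand, whereas Ltbp2 is a microfibril protein that is not known to carry latent ligand. Free ligand binds the type II receptor Tgfbr2, which activates the type I receptor Tgfbr1, and the co-receptor betaglycan (Tgfbr3) presents ligand, above all Tgfb2. The active receptors phosphorylate Smad2 and Smad3, which enter the nucleus with Smad4. Smad7 blocks the receptors and Skil (SnoN) represses Smad target genes, and both genes are themselves induced by the pathway. In the mammary gland TGF-beta is known as a restraint on ductal growth and on milk production, and Tgfb3 for its part in involution after weaning.

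The libraries held 20015386 to 24723827 counts. Levels are given as CPM, the count of a gene per unit of library size, after scaling by the trimmed mean of M-values (TMM), and a gene was called changed at an adjusted p below 0.05 in edgeR's quasi-likelihood test over all genes tested. TMM factors ranged from 0.529 in a luminal lactating library to 1.37 in a luminal virgin library, so the choice of scaling matters most for luminal cells. Summed over 10 basal marker genes, luminal libraries held 0.491%, 0.962% and 0.219% of the basal level in virgin, pregnant and lactating mice. Summed over 10 luminal marker genes, basal libraries held 12.8%, 16.2% and 38.6% of the luminal level at the same stages. At most 1 of the 10 basal markers was at 0 in any luminal library, no luminal marker was at 0 in any library, and all 10 endothelial markers had counts in every library. The summed endothelial level was 309 and 504 CPM in basal virgin libraries, 116 and 144 CPM in basal pregnant and 127 and 153 CPM in basal lactating libraries, and 29.9 to 149 CPM in luminal libraries. In bulk samples such as these, fewer cells of a type and less RNA per cell cannot be told apart.

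The 4 promoters shown belong to members described below for unlike changes, Tgfb1 beside Tgfb2 and Ltbp1 beside Ltbp2. They were picked from the 6 members with a promoter window. Each is the stretch of up to 250 bases before a transcription start site of RefSeq on build GRCm38.p6, read 5′ to 3′ on the gene's strand. Capitals mark every match, on either strand, to the SMAD box CAGAC (printed as GTCTG where it lies on the other strand), the palindromic SMAD element GTCTAGAC, the cAMP response element TGACGTCA, the AP-1 site TGANTCA, the STAT site TTCNNNGAA, the TATA box TATAAA, the E-box CACGTG or the CCAAT box. The Ltbp1 and Ltbp2 stretches stop where the annotated gene begins, so 49 and 67 bases before those start sites are left out. The Tgfb2 stretch precedes a start site inside the annotated gene, whose 5′ end is at 186709697, and is printed whole.
Tgfb1, chr7:25686752-25687001, plus strand: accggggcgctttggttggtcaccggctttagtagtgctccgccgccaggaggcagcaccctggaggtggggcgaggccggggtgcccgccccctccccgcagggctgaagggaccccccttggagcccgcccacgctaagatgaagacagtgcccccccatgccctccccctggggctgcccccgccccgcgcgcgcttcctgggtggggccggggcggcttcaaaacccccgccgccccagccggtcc
Tgfb2, chr1:186705990-186706239, minus strand: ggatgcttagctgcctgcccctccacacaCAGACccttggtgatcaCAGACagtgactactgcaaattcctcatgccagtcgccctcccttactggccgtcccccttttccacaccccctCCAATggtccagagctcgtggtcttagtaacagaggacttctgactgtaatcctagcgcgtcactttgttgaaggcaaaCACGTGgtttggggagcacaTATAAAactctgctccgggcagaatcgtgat
Ltbp1, chr17:75005279-75005479, plus strand: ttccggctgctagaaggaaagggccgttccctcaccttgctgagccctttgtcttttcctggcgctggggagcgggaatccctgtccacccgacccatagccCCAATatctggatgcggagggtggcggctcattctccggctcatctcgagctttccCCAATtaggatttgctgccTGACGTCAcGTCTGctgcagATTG
Ltbp2, chr12:84876559-84876741, minus strand: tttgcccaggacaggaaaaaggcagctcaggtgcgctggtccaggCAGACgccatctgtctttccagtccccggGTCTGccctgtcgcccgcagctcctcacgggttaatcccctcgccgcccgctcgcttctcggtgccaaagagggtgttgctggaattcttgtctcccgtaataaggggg

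The Tgfb1 and Tgfb2 promoters share none of these matches. The Tgfb1 stretch is 75.2% G and C and holds none of the 8 motifs, while the Tgfb2 stretch is 53.6% G and C, against a median of 52.4% over all 32851 windows of 250 bases. Tgfb2 has a TATA box at position -31 from the start site, an E-box at -51, a CCAAT box at -130 and SMAD boxes at -221 and -204. Ltbp1 has a cAMP response element at -73 with a SMAD box at -64, and CCAAT matches at -148, -92 and -53, the last of which is cut by the end of the printed stretch. Another Ltbp1 start site has a window that is not printed, with SMAD boxes at -148 and -97 and no other motif searched. Which start site the cells used cannot be read from counts per gene. Ltbp2 has SMAD boxes at -205 and -176. No match overlapped another in these windows. Among all windows, 42.2% held a SMAD box, 33.8% a CCAAT box, 12.4% a TATA box, 6% the E-box, 1.5% the cAMP response element, 6.7% the AP-1 site, 7% the STAT site and 0.2% the palindromic SMAD element. A match is a string of letters and not a shown binding site.

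**Figure D1:**
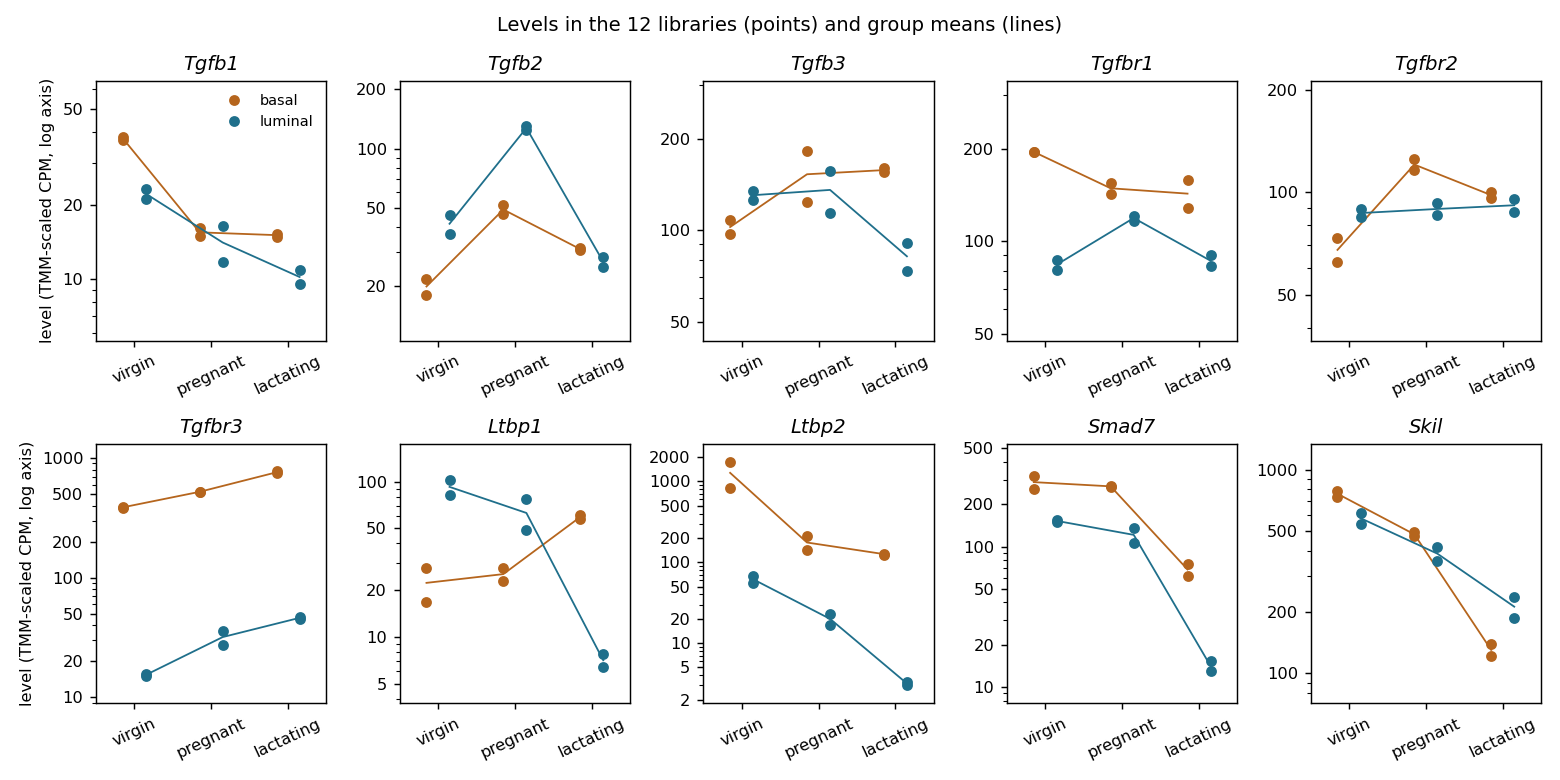
Levels of the 10 genes (CPM after TMM scaling, log axis) in basal and luminal libraries of virgin, pregnant and lactating mice; points are libraries and lines join group means. Tgfb2 peaked in luminal pregnant libraries at 125 and 130 CPM, and Smad7 was lowest in luminal lactating libraries at 15.2 and 13.0 CPM.

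Tgfb2 and Tgfb1 moved in opposite directions in pregnancy, in both layers. In luminal cells Tgfb2 stood at 46.1 and 37.1 CPM in virgin, 125 and 130 CPM in pregnant and 25.2 and 28.1 CPM in lactating libraries. In basal cells it stood at 18.05 and 21.9 CPM in virgin, 46.6 and 51.6 CPM in pregnant and 31.3 and 30.6 CPM in lactating libraries. The 3 stages did not overlap in either layer, and the pregnant libraries were the highest. Against virgin cells, Tgfb2 was 3.07-fold higher in pregnant luminal cells (log2 change 1.62 ± 0.13 SE, adjusted p = 6.79e-07) and 2.46-fold higher in pregnant basal cells (1.30 ± 0.13, adjusted p = 2.25e-05). From pregnancy into lactation it fell by 2.26 ± 0.13 on the log2 scale in luminal cells (adjusted p = 1.08e-07) and by 0.67 ± 0.13 in basal cells (adjusted p = 0.00199). Against virgin cells, lactating luminal cells were lower by -0.64 ± 0.13 and lactating basal cells higher by 0.63 ± 0.13 (log2, adjusted p = 0.000988 and 0.00170).

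Tgfb1 was highest in virgin mice. Basal cells held 38.1 and 37.3 CPM in virgin, 16.1 and 14.9 CPM in pregnant and 14.9 and 15.3 CPM in lactating libraries. Luminal cells held 21.3 and 23.4 CPM in virgin, 11.7 and 16.5 CPM in pregnant and 10.9 and 9.47 CPM in lactating libraries. Virgin libraries lay above all others of their layer, and the basal pregnant and lactating libraries overlapped. Pregnant cells were lower than virgin cells by -1.28 ± 0.15 (log2, adjusted p = 6.27e-05) in the basal layer and by -0.67 ± 0.15 (adjusted p = 0.00284) in the luminal layer. The luminal fall into lactation was smaller, with a log2 change of -0.47 ± 0.16 and an adjusted p of 0.0315. That last call was lost with DESeq2 (adjusted p = 0.0840), and also without luminal pregnant replicate 2 (-0.18) or without luminal lactating replicate 1 (-0.53) or replicate 2 (-0.34). In the same step from virgin to pregnant, all 10 endothelial markers fell in both layers, with median log2 changes of -1.43 in basal and -1.91 in luminal cells, and their part in the Tgfb1 change was not tested.

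Tgfb3 was the most abundant ligand per length of transcript at every stage. Its levels were 108 and 97.1 CPM in virgin, 123 and 182 CPM in pregnant and 155 and 161 CPM in lactating basal libraries. Luminal libraries held 135 and 126 CPM in virgin, 114 and 157 CPM in pregnant and 90.4 and 73.6 CPM in lactating mice. The lactating luminal libraries were the lowest of that layer and the virgin basal libraries the lowest of the other. In lactating against virgin cells, Tgfb3 was higher in basal cells by 0.62 ± 0.18 (log2, adjusted p = 0.0137) and lower in luminal cells by -0.67 ± 0.18 (adjusted p = 0.00722). In the basal layer pregnant cells were higher than virgin cells by 0.58 ± 0.18 (adjusted p = 0.0305), and in the luminal layer lactating cells were lower than pregnant cells by -0.73 ± 0.19 (adjusted p = 0.00602). These calls rest on few libraries: the basal pregnancy call was lost without basal virgin replicate 1 (0.65) or 2 (0.50) or basal pregnant replicate 2 (0.27), and the luminal lactation call without luminal pregnant replicate 2 (-0.46) or luminal lactating replicate 2 (-0.55). The lactating against virgin call was lost in basal cells without basal virgin replicate 2 (0.55) or basal lactating replicate 2 (0.60), and in luminal cells without luminal lactating replicate 2 (-0.50). With no call in the luminal change of pregnancy (0.06 ± 0.18), scaling by library size alone turned it to -0.46. Exons of 2 genes on the opposite strand overlap 12.4% of the Tgfb3 exon bases, and whether counting used strand is not given in the sources used here.

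**Figure D2:**
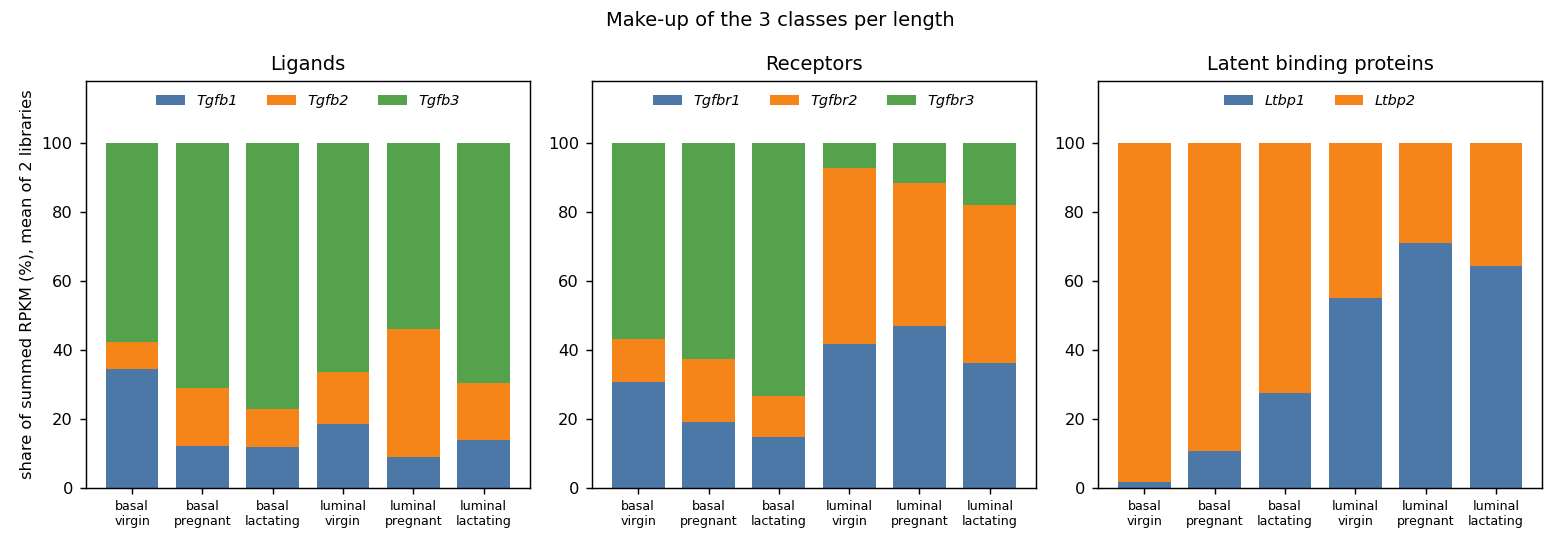
Share of each member in the summed reads per kilobase of gene length, scaled as CPM (RPKM), of its class, as the mean of 2 libraries per group. Tgfb3 led the ligands in every group, Tgfbr3 led the receptors in the 3 basal groups, and Ltbp2 led in basal cells while Ltbp1 led in luminal cells.

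Set side by side per length, in reads per kilobase of the deposited gene length, scaled as CPM (RPKM), Tgfb3 made up 51.3% to 77.5% of the summed level of the 3 ligands in the 12 libraries. The share of Tgfb2 was 40.3% and 33.6% in luminal pregnant libraries, against 16.3% and 13.97% in luminal virgin libraries. The share of Tgfb1 was 14.2% and 9.91% in basal pregnant libraries, against 33.8% and 34.8% in basal virgin libraries. The summed ligand level was 37.2 and 32.2 RPKM in luminal lactating libraries, against 65.8 and 81.8 RPKM in luminal pregnant libraries. In basal libraries the sum was 53.9 and 51.1 RPKM in virgin, 53.998 and 71.9 RPKM in pregnant and 59.5 and 61.2 RPKM in lactating mice. Such shares compare genes through 1 deposited length each and take no account of which isoform was made.

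The co-receptor Tgfbr3 was the member that separated the layers most steadily, and it rose at each step in both, except that the luminal step into lactation turned downward with scaling by library size alone. Basal libraries held 385 and 388 CPM in virgin, 520.5 and 522 CPM in pregnant and 745 and 774 CPM in lactating mice. Luminal libraries held 15.6 and 15.1 CPM in virgin, 27.5 and 36.0 CPM in pregnant and 46.7 and 45.3 CPM in lactating mice. All 6 groups stood apart from each other. Tgfbr3 was 25.2-fold higher in basal than in luminal cells of virgin mice, 16.4-fold in pregnant and 16.5-fold in lactating mice (log2 difference 4.66 ± 0.14, 4.04 ± 0.14 and 4.05 ± 0.14, adjusted p at most 9.32e-11). Luminal cells held 3.96%, 6.09% and 6.06% of the basal Tgfbr3 level at the 3 stages, beside 0.491%, 0.962% and 0.219% for the summed basal markers. The part of basal cells in the luminal Tgfbr3 level was not tested. In luminal cells the log2 change was 1.05 ± 0.13 for pregnant against virgin (adjusted p = 2.91e-05) and 0.53 ± 0.13 for lactating against pregnant (adjusted p = 0.00362), the second of which turned to -0.31 with scaling by library size alone. In basal cells the changes were 0.43 ± 0.12 (adjusted p = 0.0154) and 0.54 ± 0.12 (adjusted p = 0.00427). The first of these basal calls was lost on leaving out any of the 4 libraries compared, at 0.43 without basal virgin replicate 1, basal pregnant replicate 1 or basal pregnant replicate 2 and at 0.44 without basal virgin replicate 2.

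Tgfbr2, the receptor that binds ligand first, rose in basal cells in pregnancy and was not called at any stage change in luminal cells. Basal libraries held 62.3 and 73.2 CPM in virgin, 116 and 125 CPM in pregnant and 100.03 and 96.3 CPM in lactating mice. Luminal libraries held 84.8 and 89.1 CPM in virgin, 85.9 and 92.9 CPM in pregnant and 95.5 and 87.8 CPM in lactating mice. The 3 basal groups did not overlap, and the 3 luminal groups did. Pregnant basal cells were 1.78-fold higher than virgin basal cells (log2 0.83 ± 0.10, adjusted p = 0.000115), and lactating basal cells were higher than virgin ones by 0.54 ± 0.10 (adjusted p = 0.00117). The basal step from pregnancy to lactation was -0.30 ± 0.10 (adjusted p = 0.0434), a call lost on leaving out any of 8 of the 12 libraries: both of the luminal virgin, luminal lactating, basal pregnant and basal lactating groups, with values from -0.35 to -0.25. In luminal cells no stage comparison was called, at 0.04 ± 0.10, 0.04 ± 0.11 and 0.08 ± 0.11 for pregnant against virgin, lactating against pregnant and lactating against virgin. With scaling by library size alone the same 3 values turned to -0.47, -0.82 and -1.28.

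Tgfbr1, the kinase that phosphorylates Smad2 and Smad3, was higher in basal than in luminal cells at every stage and moved in opposite directions in pregnancy. Basal libraries held 195 and 195 CPM in virgin, 155 and 143 CPM in pregnant and 158 and 128 CPM in lactating mice. Luminal libraries held 87.2 and 80.7 CPM in virgin, 117 and 121 CPM in pregnant and 89.9 and 82.9 CPM in lactating mice. The luminal pregnant libraries stood above the other luminal ones, and the basal virgin libraries above the other basal ones. In pregnant against virgin mice Tgfbr1 rose by 0.50 ± 0.11 in luminal cells (adjusted p = 0.00280) and changed by -0.39 ± 0.11 in basal cells (adjusted p = 0.0182). In lactating against pregnant luminal cells it changed by -0.46 ± 0.11 (adjusted p = 0.00483), a call lost without luminal lactating replicate 2 (-0.37). The basal call of pregnancy was lost without basal virgin replicate 1 or 2 (-0.39 each) or basal pregnant replicate 2 (-0.34). Lactating basal cells differed from virgin ones by -0.45 ± 0.11 (adjusted p = 0.00525), which was not called without basal lactating replicate 2 (-0.31). With scaling by library size alone, the luminal rise of pregnancy came to -0.0026, and the uncalled luminal change of 0.04 ± 0.11 from virgin to lactating mice came to -1.32.

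Per length, Tgfbr3 made up 56.3% to 74.98% of the summed receptor RPKM in basal libraries and 7.05% to 18.5% in luminal libraries. In luminal cells Tgfbr2 and Tgfbr1 were close to each other, at 17.7 and 18.6 RPKM for Tgfbr2 and 15.4 and 14.2 RPKM for Tgfbr1 in virgin mice. In luminal pregnant libraries that order was reversed, with 20.6 and 21.4 RPKM for Tgfbr1 and 17.9 and 19.4 RPKM for Tgfbr2. In basal virgin cells Tgfbr1 stood at 34.5 and 34.5 RPKM and Tgfbr2 at 13.0 and 15.3 RPKM. In basal pregnant cells the pair came closer, at 27.3 and 25.2 RPKM for Tgfbr1 and 24.3 and 26.1 RPKM for Tgfbr2, with overlapping libraries.

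Ltbp2 had the highest single level of any member in CPM and fell in both layers in pregnancy. Basal virgin libraries held 1726 and 833 CPM, basal pregnant libraries 141 and 210.4 CPM and basal lactating libraries 128 and 124 CPM. Luminal libraries held 68.3 and 54.9 CPM in virgin, 22.9 and 16.9 CPM in pregnant and 3.06 and 3.26 CPM in lactating mice. The stages did not overlap in either layer, although the basal virgin libraries differed widely from each other. Pregnant basal cells were 7.28-fold lower than virgin basal cells (log2 -2.86 ± 0.29, adjusted p = 2.83e-05), and without basal virgin replicate 1 the change was -2.25. Lactating basal cells differed from virgin ones by -3.34 ± 0.30 (adjusted p = 4.16e-06), or -2.72 without that library, and the basal step from pregnancy to lactation was not called (-0.48 ± 0.28, adjusted p = 0.208). In luminal cells the steps were -1.63 ± 0.30 (adjusted p = 0.000683) in pregnancy and -2.66 ± 0.38 (adjusted p = 0.000110) in lactation, which together left lactating cells 19.5-fold below virgin cells. The basal virgin library with the higher Ltbp2 level, replicate 1, was the one with the lower summed endothelial markers, at 309 against 504 CPM. The sum of 9 fibroblast markers was 679 and 866 CPM in basal pregnant libraries, against 230 and 313 CPM in basal virgin libraries, with 2 markers higher, 2 lower and 5 not called. In luminal cells that sum was 76.5 and 53.7 CPM in pregnant libraries, against 387 and 242 CPM in virgin libraries, with 0 markers higher and 4 lower, and 5 of 7 pericyte markers were lower there too. The part of these cell types in the Ltbp2 changes was not tested. An antisense gene overlaps 9.3% of the Ltbp2 exon bases.

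Ltbp1 changed in opposite directions in the 2 layers once lactation began. Luminal libraries held 103 and 81.9 CPM in virgin, 48.5 and 77.3 CPM in pregnant and 7.80 and 6.36 CPM in lactating mice. Basal libraries held 16.8 and 27.8 CPM in virgin, 23.0 and 27.8 CPM in pregnant and 60.6 and 57.8 CPM in lactating mice. The lactating libraries were apart from both earlier stages in each layer, below them in luminal and above them in basal cells. Lactating luminal cells were 8.87-fold lower than pregnant luminal cells (log2 -3.15 ± 0.28, adjusted p = 2.30e-06), and lactating basal cells were 2.33-fold higher than pregnant basal cells (1.22 ± 0.24, adjusted p = 0.00223). The step of pregnancy was not called in either layer, at -0.56 ± 0.23 in luminal cells (adjusted p = 0.0641) and 0.19 ± 0.24 in basal cells (adjusted p = 0.589). With the replicate number as a block the luminal step was called, at -0.60 (adjusted p = 0.0128), and it was called as well without luminal pregnant replicate 2 (-0.94), without basal virgin replicate 1 (-0.56) and without basal virgin replicate 2 (-0.56). Basal levels of Ltbp1 were 24.1% and 40.4% of the luminal level in virgin and pregnant mice, beside 12.8% and 16.2% for the summed luminal markers. The part of luminal cells in the basal Ltbp1 level was not tested.

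Per length the binding proteins divided by layer. Ltbp2 made up 99.2% and 97.4% of the summed Ltbp1 and Ltbp2 RPKM in basal virgin libraries, 88.3% and 90.3% in basal pregnant and 72.3% and 72.6% in basal lactating libraries. Ltbp1 made up 54.8% to 78.8% in the 6 luminal libraries. The sum was smallest in luminal lactating libraries, where Ltbp1 stood at 0.958 and 0.782 RPKM and Ltbp2 at 0.463 and 0.493 RPKM.

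Smad7, the inhibitor that blocks the receptors, was not called changed in pregnancy and fell at lactation in both layers. Basal libraries held 258 and 318 CPM in virgin, 266 and 271 CPM in pregnant and 75.6 and 61.8 CPM in lactating mice. Luminal libraries held 151 and 154 CPM in virgin, 106 and 136 CPM in pregnant and 15.2 and 13.0 CPM in lactating mice. Lactating libraries lay below all others of their layer. Against pregnant cells, lactating luminal cells were 8.58-fold lower (log2 -3.10 ± 0.17, adjusted p = 5.91e-08) and lactating basal cells 3.91-fold lower (-1.97 ± 0.15, adjusted p = 8.20e-06). The step of pregnancy was not called, at -0.33 ± 0.14 in luminal cells (adjusted p = 0.0804) and -0.10 ± 0.14 in basal cells (adjusted p = 0.637). In luminal cells it was called with the replicate block (-0.34, adjusted p = 0.0206) and without luminal pregnant replicate 2 (-0.53).

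Skil, which encodes the transcriptional corepressor SnoN, fell at both steps in both layers. Basal libraries held 788 and 734 CPM in virgin, 492 and 471 CPM in pregnant and 139 and 121 CPM in lactating mice. Luminal libraries held 613 and 543 CPM in virgin, 356 and 418 CPM in pregnant and 238 and 187 CPM in lactating mice. No stage overlapped another within a layer. In pregnant against virgin mice Skil fell by 0.66 ± 0.14 on the log2 scale in basal cells (adjusted p = 0.00359) and by 0.58 ± 0.14 in luminal cells (adjusted p = 0.00437). In lactating against pregnant mice it fell by 1.88 ± 0.14 in basal cells (adjusted p = 8.20e-06) and by 0.86 ± 0.14 in luminal cells (adjusted p = 0.000266). Its level in lactating basal cells was 5.84-fold below that of virgin basal cells.

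**Figure D3:**
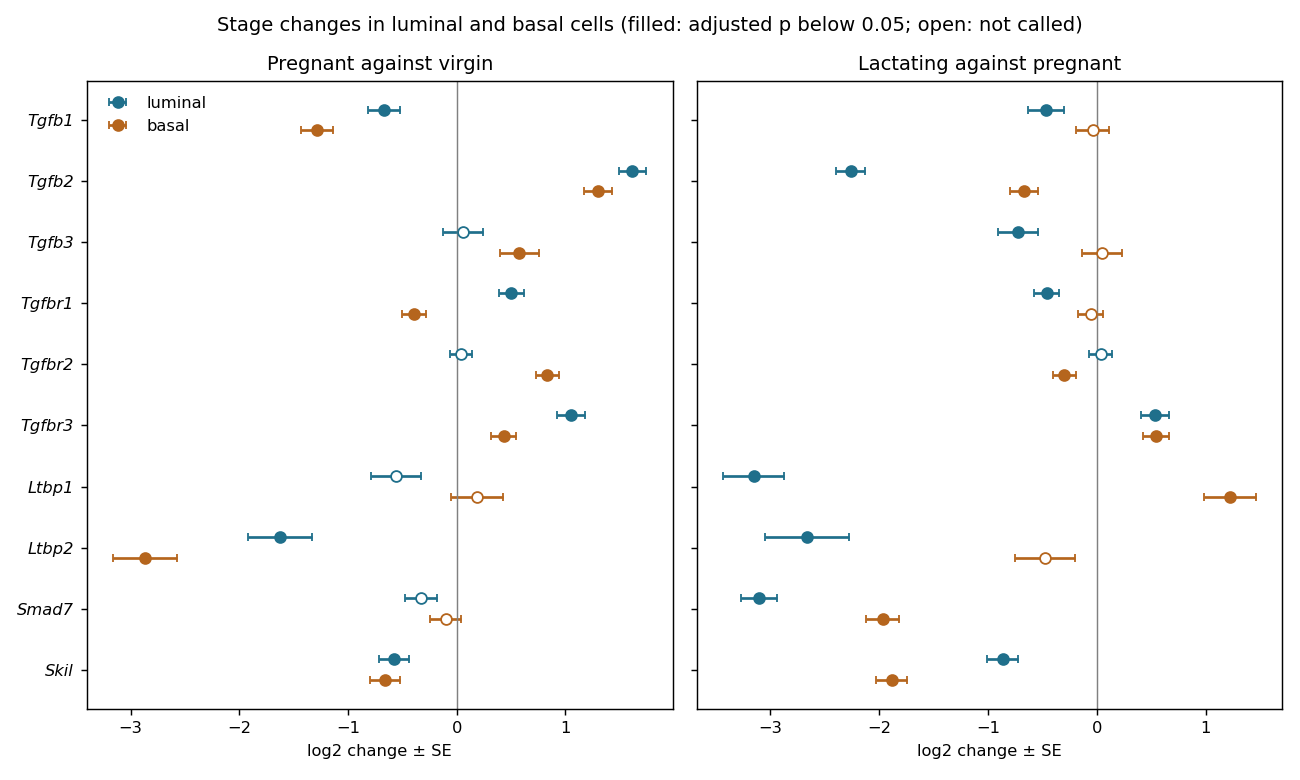
Log2 change (± SE) of the 10 genes in luminal and basal cells for pregnant against virgin and lactating against pregnant mice; filled points have an adjusted p below 0.05. In lactating against pregnant luminal cells 8 of 10 genes were lower, with Ltbp1 and Smad7 at -3.15 and -3.10.

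Counted together, the members moved both ways in pregnancy and mostly downward in luminal cells at lactation. In pregnant against virgin mice 3 members were higher and 3 lower in luminal cells, where 45.9% of all genes tested were called (21.8% higher, 24.1% lower). In basal cells 4 were higher and 4 lower, where 30.0% of all genes were called (15.6% higher, 14.4% lower). The basal count fell to 5 without basal virgin replicate 1, basal virgin replicate 2 or basal pregnant replicate 2. In lactating against pregnant mice 1 member, Tgfbr3, was higher and 8 were lower in luminal cells, where 48.3% of all genes were called (23.7% higher, 24.6% lower). In basal cells 2 were higher and 4 lower, where 33.1% were called (15.7% higher, 17.4% lower). Among the luminal falls, the calls of Tgfb1, Tgfb3 and Tgfbr1 were lost without luminal lactating replicate 2 (-0.34, -0.55 and -0.37). Those of Tgfb1 and Tgfb3 were also lost without luminal pregnant replicate 2 (-0.18 and -0.46). In lactating against virgin mice the counts were 1 higher and 7 lower in luminal cells, where 60.2% were called (26.7% higher, 33.5% lower), and 5 higher and 5 lower in basal cells, where 47.5% were called (23.7% in each direction). The median log2 change of the members from pregnancy to lactation was -0.79 in luminal and -0.18 in basal cells, beside 0 and 0.01 over all genes tested. All stage comparisons of a layer share libraries.

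Scaling bears on these directions. With library size alone in place of TMM, the median of all genes in luminal cells shifted by -0.50 in pregnant against virgin, -0.85 in lactating against pregnant and -1.36 in lactating against virgin mice, and in basal cells by -0.16, -0.04 and -0.20. Of all genes called, the share that was higher then came to 12.6%, 9.6% and 6.9% in the luminal comparisons, against 47.6%, 49% and 44.4% with TMM. In basal cells the share came to 32.1% in pregnant against virgin and 31.9% in lactating against virgin mice, against 52% and 50% with TMM. For the members themselves, 2 were higher and 7 lower in pregnant against virgin luminal cells, and 0 were higher and 10 lower in lactating against pregnant luminal cells. Under TMM the largest falls in lactating against pregnant luminal cells were those of Smad7, Ltbp1 and Ltbp2 (log2 -3.10, -3.15 and -2.66). The shift runs in the same direction as these falls, so their size beside it cannot test the scaling.

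Between the layers, more members were higher in basal cells. In virgin mice 6 were higher and 3 lower in basal than in luminal cells, where 62.8% of all genes tested were called (31.5% higher, 31.2% lower). In pregnant mice 5 were higher and 2 lower, where 69.9% were called (35.9% higher, 33.9% lower), and in lactating mice 7 were higher and 1 lower, where 74.6% were called (39.2% higher, 35.4% lower). Averaged over the stages, 6 were higher and 1 lower, where 81.5% were called (41.5% higher, 40.1% lower). The median log2 difference of the members was 0.58, 0.32 and 0.83 in virgin, pregnant and lactating mice, beside -0.01, 0.02 and 0.08 over all genes. With library size alone, the median of all genes shifted by -0.16, 0.19 and 0.99 in virgin, pregnant and lactating mice, 80.1% of the genes called in lactating mice were higher in basal cells, against 52.5% with TMM, and over the mean of stages 65.9%, against 50.9%. Under that scaling 9 members were higher and 0 lower in lactating mice.

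**Figure D4:**
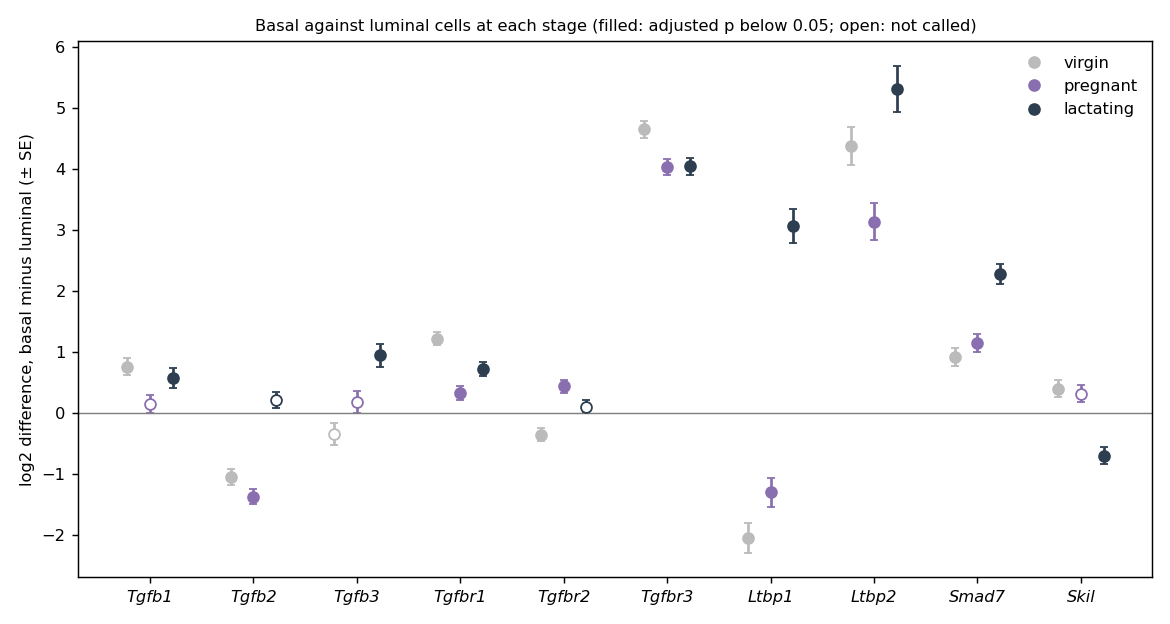
Log2 difference (basal minus luminal, ± SE) of the 10 genes in virgin, pregnant and lactating mice; filled points have an adjusted p below 0.05. Tgfbr3 and Ltbp2 lay above 3 at every stage, and Ltbp1 lay at -2.05 and -1.31 in virgin and pregnant mice and at 3.06 in lactating mice.

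Endothelial markers were also higher in basal cells, 10, 9 and 9 of 10 in virgin, pregnant and lactating mice. Their median log2 differences were 2.14, 2.31 and 2.33, and 1 of them was lower in lactating mice. Of 7 pericyte markers, 6 were higher and 1 lower in basal cells at each stage. Of 9 fibroblast markers, 6, 8 and 3 were higher and 1, 0 and 0 lower at the same stages. The part of these cell types in the differences between layers was not tested. Ltbp2 was 20.8-fold, 8.80-fold and 39.9-fold higher in basal than in luminal cells of virgin, pregnant and lactating mice (log2 difference 4.38 ± 0.32, 3.14 ± 0.31 and 5.32 ± 0.38, adjusted p at most 1.22e-06). Without basal virgin replicate 1 the virgin difference was 3.76. Smad7 was 1.89-fold, 2.22-fold and 4.87-fold higher in basal cells at the 3 stages (adjusted p = 0.000128, 1.40e-05 and 4.64e-08). Tgfbr1 was higher in basal cells by 1.22 ± 0.11, 0.32 ± 0.11 and 0.73 ± 0.11 (log2), and the pregnant call (adjusted p = 0.0211) was lost without luminal pregnant replicate 1 (0.29) or basal pregnant replicate 1 (0.26). Tgfb1 was higher in basal cells by 0.76 ± 0.14 in virgin mice (adjusted p = 0.000554) and 0.57 ± 0.16 in lactating mice (adjusted p = 0.00650), and the lactating call was lost without luminal lactating replicate 2 (0.44).

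Tgfb2 was the ligand higher in luminal cells. Basal cells were below luminal cells by -1.06 ± 0.13 in virgin mice (log2, adjusted p = 1.37e-05) and by -1.38 ± 0.13 in pregnant mice (adjusted p = 6.28e-07), and in lactating mice the difference was 0.21 ± 0.13 (adjusted p = 0.162). Ltbp1 was lower in basal cells by -2.05 ± 0.24 in virgin mice (adjusted p = 9.48e-06) and -1.31 ± 0.24 in pregnant mice (adjusted p = 0.000309), and it was 8.36-fold higher in basal cells of lactating mice (3.06 ± 0.28, adjusted p = 4.70e-07). Tgfb3 was higher in basal cells of lactating mice by 0.94 ± 0.19 (adjusted p = 0.000487). In virgin mice its difference was -0.35 ± 0.18 (adjusted p = 0.113), called with the replicate block (-0.35, adjusted p = 0.00925). Tgfbr2 differed by -0.36 ± 0.10 in virgin mice (adjusted p = 0.00915) and 0.43 ± 0.10 in pregnant mice (adjusted p = 0.00241), and the virgin call was lost without luminal virgin replicate 2 (-0.32) or basal virgin replicate 1 (-0.25). Skil was higher in basal cells of virgin mice by 0.40 ± 0.14 (adjusted p = 0.0240), a call lost without luminal virgin replicate 2 (0.31) or basal virgin replicate 1 (0.35). In lactating mice Skil was lower in basal cells by -0.71 ± 0.14 (adjusted p = 0.000539), which turned to 0.29 with scaling by library size alone. In pregnant mice the Skil difference of 0.32 ± 0.14 (adjusted p = 0.0583) was called with the replicate block (0.32, adjusted p = 0.0178) and with DESeq2 (0.35, adjusted p = 0.0272), and also without luminal pregnant replicate 2 (0.43) or either luminal lactating library (0.31 each).

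The difference between the layers in each stage change was tested as an interaction, luminal change minus basal change. In pregnancy 5 members differed, 4 with the higher value in luminal cells and 1 with the lower, where 30.7% of all genes tested were called (14.0% higher, 16.7% lower). Tgfbr1 differed by 0.90 ± 0.16 (log2, adjusted p = 0.00105) and Tgfbr2 by -0.79 ± 0.15 (adjusted p = 0.00146). The luminal change was thus above the basal change for Tgfbr1 and below it for Tgfbr2. Tgfbr3 differed by 0.62 ± 0.17 (adjusted p = 0.0170), Ltbp2 by 1.24 ± 0.40 (adjusted p = 0.0340) and Tgfb1 by 0.61 ± 0.21 (adjusted p = 0.0415). Leaving out single libraries gave 2 to 5 calls, with 2 without luminal virgin replicate 2 and 3 without basal virgin replicate 1, basal lactating replicate 1 or basal lactating replicate 2. The Tgfb1 call was lost without any library other than luminal pregnant replicate 1 and the luminal lactating pair, at 0.34 (luminal pregnant replicate 2) to 0.69 (luminal virgin replicate 2). The Tgfbr3 call was lost without luminal virgin replicate 2 (0.60) or luminal pregnant replicate 2 (0.41). The Ltbp2 call was lost without luminal virgin replicate 2 (1.09), luminal pregnant replicate 1 (1.00), basal virgin replicate 1 (0.62), basal pregnant replicate 1 (0.98) or either basal lactating library (1.24 each). With the replicate block Tgfb3 (-0.51, adjusted p = 0.0153) and Ltbp1 (-0.80, adjusted p = 0.0306) were called as well.

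From pregnancy to lactation 6 members differed between the layers, 1 with the higher value in luminal cells and 5 with the lower, where 36.2% of all genes tested were called (18.3% higher, 18.0% lower). Ltbp1 differed by -4.37 ± 0.37 (adjusted p = 5.08e-06), Ltbp2 by -2.18 ± 0.48 (adjusted p = 0.00352), Tgfb2 by -1.59 ± 0.18 (adjusted p = 3.88e-05) and Smad7 by -1.14 ± 0.22 (adjusted p = 0.00142). Skil differed the other way, by 1.02 ± 0.20 (adjusted p = 0.00152), its fall being larger in basal cells. Tgfb3 differed by -0.77 ± 0.26 (adjusted p = 0.0340), a call lost without luminal pregnant replicate 2 (-0.51), luminal lactating replicate 2 (-0.60), basal pregnant replicate 1 (-0.52), basal lactating replicate 1 (-0.80) or basal lactating replicate 2 (-0.75). Tgfbr1, at -0.40 ± 0.16 (adjusted p = 0.0650), was called with the replicate block (-0.40, adjusted p = 0.0374) and without basal lactating replicate 2 (-0.55). With library size alone the median of all genes shifted by -0.34 in the pregnancy and -0.79 in the lactation interaction, and the share of called genes that were higher was 17.9% in the pregnancy interaction and 11.3% in the lactation interaction, against 45.7% and 50.4% with TMM. The members then split into 1 higher and 4 lower in pregnancy and 0 higher and 9 lower in lactation.

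The rest of the pathway was described through lists holding 75 genes in all. Of 9 other receptors tested, 3 rose and 4 fell in pregnant against virgin luminal cells, where 21.8% of all genes rose and 24.1% fell. In basal cells 2 rose and 3 fell, where 15.6% of all genes rose and 14.4% fell. Among 11 other negative regulators, 0 rose and 10 fell in lactating against virgin luminal cells, and 0 rose and 5 fell in lactating against pregnant basal cells, with list medians of -1.34 and -0.33 beside -0.15 and 0.01 over all genes. Of all genes tested, 33.5% fell in the luminal and 17.4% in the basal comparison. Against virgin basal cells, 2 of these regulators rose and 5 fell in lactating cells, where 23.7% of all genes were called in each direction. In pregnant against virgin basal cells 2 rose and 1 fell, where 15.6% of all genes rose and 14.4% fell. The list of regulators shares Dcn with the fibroblast markers. Dcn changed by -4.57 ± 0.36 in lactating against virgin luminal cells. Against virgin basal cells it rose by 2.82 ± 0.31 in pregnant and 2.04 ± 0.30 in lactating cells. The part of fibroblasts in these changes was not tested. Smad6, an inhibitory Smad of bone morphogenetic protein signalling, stood at 6.77 and 7.17 CPM in basal lactating libraries and at 18.2 and 18.6 CPM in basal pregnant libraries (log2 change -1.40 ± 0.17). Pmepa1, a target gene whose product dampens Smad activation, stood at 61.2 and 114 CPM in basal lactating libraries and 377 and 454 CPM in basal pregnant libraries (-2.24 ± 0.25). Among 7 Smad genes and Smad partners, 0 rose and 5 fell in lactating against virgin luminal cells, with a list median of -0.80, where 33.5% of all genes fell. In lactating against virgin basal cells 1 rose, 0 fell and 6 were not called, where 23.7% of all genes rose and 23.7% fell. Smad3 was called in both basal steps, at 0.75 ± 0.13 in pregnant against virgin and -1.06 ± 0.13 in lactating against pregnant cells.

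Of 14 genes of latency and activation, 9 were higher and 2 lower in basal than in luminal cells of virgin mice, 12 and 1 in pregnant mice and 10 and 0 in lactating mice. Of all genes tested, 31.5%, 35.9% and 39.2% were higher in basal cells at these stages. Fbn1, the microfibril protein fibrillin-1 to which latent complexes attach, was higher in basal cells by 5.39 ± 0.22, 7.20 ± 0.25 and 6.82 ± 0.25 (log2) at the 3 stages. Thbs1, thrombospondin-1, an activator of latent TGF-beta, changed by -4.11 ± 0.32 in lactating against pregnant luminal cells, where it stood at 84.2 to 96.5 CPM in lactating libraries. Lrrc32, which holds latent TGF-beta on the cell surface, changed by -2.21 ± 0.32 in luminal and -1.16 ± 0.26 in basal cells of pregnant against virgin mice, beside the fall of all 10 endothelial markers. The co-receptor Eng, an endothelial gene, changed in the same comparison by -2.63 ± 0.27 in luminal and -1.48 ± 0.23 in basal cells. The part of endothelial cells in these changes was not tested.

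Of 20 known target genes of TGF-beta, 17 were higher and 0 lower in basal than in luminal cells of virgin mice, 17 and 1 in pregnant mice and 15 and 2 in lactating mice. Of all genes tested, 31.5%, 35.9% and 39.2% were higher and 31.2%, 33.9% and 35.4% lower at these stages. The list overlaps the markers of the layer itself, since it holds the contractile gene Acta2 (8.52 ± 0.32 in virgin mice, log2), and it shares 3 collagen genes with the fibroblast markers. Over stages, 5 targets were higher and 5 lower in pregnant against virgin luminal cells, where 21.8% of all genes were higher and 24.1% lower. In lactating against pregnant luminal cells 6 were higher and 3 lower, where 23.7% of all genes were higher and 24.6% lower. In basal cells 5 were higher and 6 lower in pregnancy, where 15.6% of all genes were higher and 14.4% lower. At the basal step into lactation 2 were higher and 5 lower, where 15.7% of all genes were higher and 17.4% lower. Ccn2, connective tissue growth factor, stood at 62.2 to 70.2 CPM in virgin, 385 to 611 CPM in pregnant and 3.21 to 4.62 CPM in lactating luminal libraries. It rose by 2.91 ± 0.25 in pregnant against virgin luminal cells and changed by -6.99 ± 0.32 in lactating against pregnant ones. In basal cells its changes were 2.79 ± 0.24 and -2.01 ± 0.24 for the same steps. Id3, an inhibitor of helix-loop-helix factors, changed in pregnant against virgin mice by -4.46 ± 0.15 in luminal and -2.74 ± 0.13 in basal cells.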

How the data were processed

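RNA-seq counts of 12 libraries (6 groups of 2) were used. The submitters' processing notes name CASAVA 1.8.2, Subread 1.4.4 and featureCounts with builds GRCm38 and mm10, and the deposited values are raw read counts per Entrez gene with a deposited gene length. Whether strand was used is not given in the sources used here. Symbols were matched to 25275 of 27179 identifiers. Counts were normalised by TMM and tested with edgeR 4.0.16 (R 4.3.3) by the quasi-likelihood F-test on 6 group means, after filterByExpr with a minimum count of 10; p-values were adjusted by Benjamini-Hochberg over the 15969 genes kept, and called below 0.05. Each SE was derived from the log2 change and the root of its F statistic. DESeq2 1.42.0 and other scalings, filters and sample sets were alternatives. Replicates measure the spread between libraries, which the labels do not tie to mice.

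The members and lists were chosen with earlier results of these data known. Named list genes come from a rule of up to 3 called genes of largest absolute change per pathway list and comparison, of which some are printed, and likeness names the 2 genes with the highest Pearson r to each member. Within each stage, luminal and basal libraries with the same number deviated together over 9096 genes (r = 0.249, 0.355 and 0.161 in virgin, pregnant and lactating mice). The labels do not say that they pair, and they were taken to pair, by a minimum r of 0.1, in the replicate block alone. The main fit treated all 12 libraries as independent, so its tests between layers and its interactions took no account of shared mice. Pairs of groups from different stages gave r from -0.277 to 0.164, so the lactating value lies within their range and some of them pass that minimum too. The script was tested on simulated counts. Promoters come from RefSeq tables of GRCm38.p6, in which 6 of 10 members matched.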

Additional observations from a re-analysis of the deposited data

Results flagged for a closer look

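A stage change that differed between luminal and basal cells was found for the genes listed here, by the interaction term of edgeR's quasi-likelihood fit, luminal change minus basal change on the log2 scale. For pregnant against virgin mice the differences were 0.61 for Tgfb1, 0.9 for Tgfbr1, -0.79 for Tgfbr2, 0.62 for Tgfbr3 and 1.24 for Ltbp2. For lactating against pregnant mice they were -1.59 for Tgfb2, -0.77 for Tgfb3, -1.14 for Smad7, 1.02 for Skil, -4.37 for Ltbp1 and -2.18 for Ltbp2.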

How the results depend on the processing

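Leaving out 1 library at a time, the number of members called ranged from 5 to 8 in basal pregnant against virgin cells and from 2 to 5 for the pregnancy interaction. With only the groups compared in the fit, the pregnancy interaction had 3 members called, against 5. Scaling by library size alone turned the sign of Tgfb3 (-0.46), Tgfbr1 (-0.0026) and Tgfbr2 (-0.47) in pregnant against virgin luminal cells, of Tgfbr2 (-0.82) and Tgfbr3 (-0.31) in lactating against pregnant luminal cells, of Tgfbr1 (-1.32) and Tgfbr2 (-1.28) in lactating against virgin luminal cells, of Skil (0.29) in basal against luminal lactating cells, and of Tgfbr2 (-0.47) in the lactation interaction. Its cause was not tested. Among 120 member values per setting, 116 kept their direction and call with DESeq2, 117 with DESeq2 size factors in edgeR and 117 without a filter, and 113 with the replicate block, which gained the calls given in the text and changed no other call. With library size alone 89 kept both, 9 turned in sign, 14 gained a call and 8 lost it. Calls lost within a layer were Tgfb3 (0.41) and Tgfbr3 (0.27) in pregnant against virgin basal cells and Tgfbr3 (0.23) in lactating against virgin luminal cells. Between virgin layers Skil (0.24) lost its call. Among the interactions, Tgfb1 (0.26), Tgfbr3 (0.27) and Ltbp2 (0.91) lost it in pregnancy and Skil (0.22) in lactation. With 1 library left out, 1362 values kept both, 64 lost the call and 14 gained it. Where a group was left with 1 library, that library was assumed to vary like the other groups. The depth of 20015386 to 24723827 counts limits single values little, since the lowest member count was 40, and 2 libraries per group limit the tests more.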

Other observations

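Over the 12 libraries, the genes whose log2 CPM ran most like each member, by Pearson r, included Niban1 (0.992) and Col17a1 (0.992) for Tgfbr3, Rnps1 (0.991) and Nedd9 (0.983) for Smad7, C1qtnf12 (0.990) and Spen (0.978) for Ltbp2, and Atl2 (0.985) and Elp5 (0.973) for Tgfbr1. For Skil they were Sf3b3 (0.976) and Cdca7l (0.967), for Ltbp1 Ndel1 (0.965) and S100a11 (0.947), for Tgfb1 S100a14 (0.958) and Jpt1 (0.954), for Tgfb2 Fbxw7 (0.954) and Taf7 (0.945), for Tgfbr2 Adam9 (0.945) and Pnisr (0.927), and for Tgfb3 Rnf123 (0.930) and Decr1 (0.925). The points share libraries and fall into 6 groups, so these values describe likeness across the groups.

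A list of 13 other ligands of the TGF-beta family, of which 11 were tested, also holds Bmp1, a protease that processes matrix proteins and, despite its name, not a ligand. In pregnant against virgin mice 0 rose and 6 fell in luminal cells, where 24.1% of all genes fell, and 1 rose and 5 fell in basal cells, where 14.4% fell. In lactating against virgin mice 1 rose and 8 fell in luminal cells, where 33.5% fell, and 1 rose and 6 fell in basal cells, where 23.7% fell. Bmp1 is among the falls in both luminal comparisons and in the basal comparison of pregnancy. It changed by -2.78 ± 0.14 (log2) in lactating against virgin luminal cells. Bmp7 was higher in basal than in luminal cells by 5.94 ± 0.29 in virgin mice and 5.51 ± 0.28 in pregnant mice. Bmp3 was lower in basal cells by -4.89 ± 0.50 and -5.42 ± 0.60 in the same comparisons.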
